A study of Oryctolagus cuniculus with 4 samples.

Results

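Metalloproteases and the inhibitors that hold them in check were described across the cell classes of the rabbit bladder mucosa, at rest and after a surgical injury. All genes were taken whose symbol starts with MMP, ADAM or TIMP followed by a number, or with ADAMTS, which gave 46 of the 18475 genes in the deposited tables. They comprised 15 matrix metalloproteinases (MMP), 13 ADAM, 13 ADAMTS, 2 ADAMTS-like (ADAMTSL) and 3 TIMP genes. Only 9771 genes of the tables carry a symbol, so a family member listed without one is not among the 46, and MMP9, MMP14 and TIMP2 were not analysed here.

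Droplet-based single-cell RNA sequencing had been carried out on mucosa from adult New Zealand rabbits, with 1 library per sample. The 2 Injury samples were taken on day 10 after a focal mucosal resection, when new urothelium had just closed over the wound. The 2 Normal samples came from mucosa under homeostasis, and all 4 pieces were dissociated with collagenase. The tissue is labelled urothelium, but most of the kept cells carried fibroblast or endothelial markers, so the samples hold the whole mucosa.

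Amplified copies of one RNA molecule share its molecular barcode, the UMI, and were counted once. The samples held 5823 to 6884 cell barcodes, of which 4308 to 6081 were kept. Their median depth was 4813.5 UMIs per cell in Normal 1 and 6755 to 7186 in the other 3 samples, and any 2 samples shared 4 to 12 of the kept barcodes. The clusters were assigned to 10 classes by fixed markers, and in every class at least 4 of its markers were highest in that class, with 6 of 6 in fibroblast-like, 9 of 9 in endothelial-like, 8 of 8 in smooth muscle and pericyte, 9 of 10 in epithelial-like and 9 of 10 in macrophage-like cells. A class was compared between conditions where every sample held at least 20 of its cells, which was met by 7 classes. Levels in B cell-like, mast cell-like and glia-like cells are given without a comparison.

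MMPs cut collagens and other matrix proteins outside the cell and are made as inactive precursors. ADAMs are mostly membrane-bound and release growth factors, cytokines and adhesion molecules from the cell surface, although some have lost the catalytic site. ADAMTS enzymes are secreted and cleave proteoglycans and procollagens, and the ADAMTSL proteins resemble them without being proteases. TIMPs bind the active site of these enzymes, and TIMP3, which is retained in the matrix, also inhibits several ADAM and ADAMTS enzymes. In wound repair the families are known for clearing provisional matrix and for loosening migrating epithelium.

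The 46 genes ranged widely in level. At least 1 UMI was found for 44 of them, with none for ADAM30 and MMP26. A level in CPM is a gene's UMI number after the sum of its class in a sample is scaled to 1000000. A mean of 20 CPM or more in some class was reached by 25, while 19 others had UMIs but stayed under that level in every class. Of the 25, the highest level was in fibroblast-like cells for 6, in epithelial-like, smooth muscle and pericyte, and glia-like cells for 5 each, in endothelial-like cells for 2, and in T cell-like and macrophage-like cells for 1 each. Because the classes were made from the same genes, levels of one class against another are a description, with no test. UMIs come from the 3' ends of transcripts and are not scaled by length, so levels are compared between classes and not between genes.

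**Figure D1:**
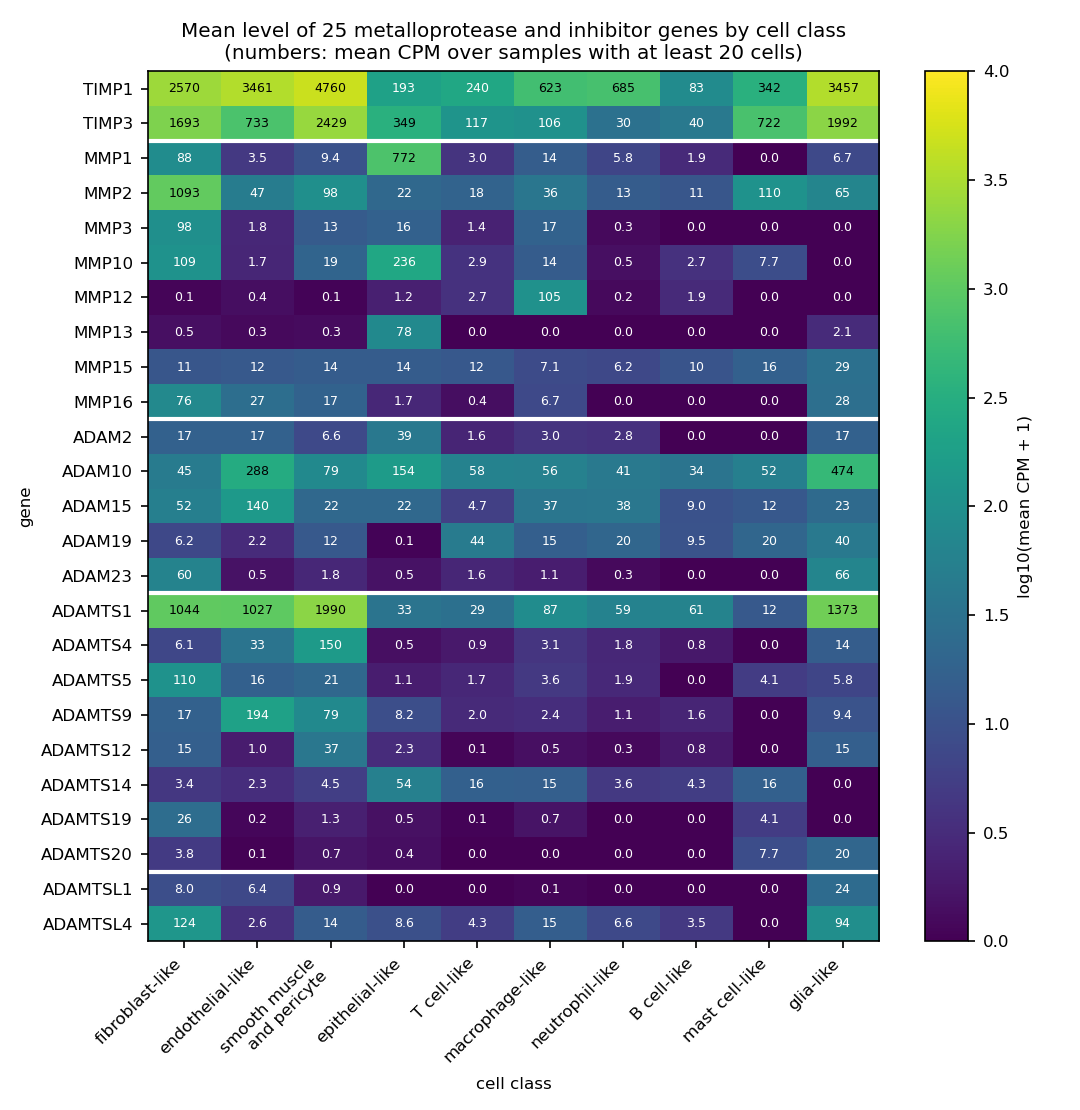
The 25 genes that reached a mean of 20 CPM in some class (rows) are shown in the 10 cell classes (columns), with colour for log10(mean CPM + 1) and the mean CPM printed in each cell. TIMP1 and TIMP3 were found in every class, MMP2 stood out in fibroblast-like cells and MMP1 in epithelial-like cells.

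The inhibitors were the most widely spread members. TIMP1, a soluble inhibitor of most MMPs, stood at 4760 ± 1734 CPM in smooth muscle and pericyte cells (SD, n = 4) and at 3461 ± 772 CPM in endothelial-like cells (n = 4), a gap smaller than the spread between samples. TIMP3 reached 2429 ± 277 CPM in smooth muscle and pericyte cells (n = 4), 1992 ± 997 in glia-like cells (n = 3) and 1693 ± 391.96 in fibroblast-like cells (n = 4), and the first and second of these did not differ beyond their spread. Since fibroblast-like cells were many, they held 66.0% of all TIMP3 UMIs and 46.5% of those of TIMP1. TIMP4 was close to absent, with 14 UMIs in all kept cells.

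The MMPs were divided between compartments. MMP2, the gelatinase that also processes type IV collagen, averaged 1093 ± 263 CPM in fibroblast-like cells (n = 4) against 97.5 ± 38.7 in smooth muscle and pericyte cells, and fibroblast-like cells held 93.7% of its UMIs. MMP16, a membrane-anchored MMP (76.4 ± 23.9 CPM), and MMP3, the broad-acting stromelysin-1 (97.8 ± 44.6 CPM), were also highest there, and 91.8% of MMP3 UMIs were from fibroblast-like cells. The interstitial collagenase MMP1 stood at 772 ± 425 CPM in epithelial-like cells against 88.5 ± 66.5 in fibroblast-like cells. Stromelysin-2, MMP10, gave 236 ± 61.6 and 109 ± 80.9 CPM in the same pair of classes, which held 45% and 52.1% of its UMIs. Collagenase-3, MMP13, averaged 77.7 ± 88.2 CPM in epithelial-like cells, which held 96.1% of its UMIs, and the SD larger than the mean reflects 1 high sample. MMP12, the macrophage elastase, had 95.2% of its UMIs in macrophage-like cells. MMP15, another membrane-anchored MMP, averaged 28.5 ± 25.9 CPM in glia-like cells (n = 3). All MMPs together had only 22, 54 and 2 UMIs there in Injury 1, Injury 2 and Normal 1.

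The highest levels of the ADAMs were spread over the vasculature, glia, epithelium and lymphocytes. Fibroblast-like cells, which were many, held 39.8% of ADAM15, 39.3% of ADAM19 and 39.1% of ADAM2 UMIs, but 15.6% of those of ADAM10. ADAM10, the sheddase of Notch receptors and cadherins, stood at 474 ± 62.3 CPM in glia-like cells (n = 3), 288 ± 25.2 in endothelial-like cells (n = 4) and 154 ± 83.2 in epithelial-like cells (n = 4). ADAM15 was highest in endothelial-like cells at 140 ± 59.8 CPM, and ADAM19 in T cell-like cells at 44.4 ± 19.8 CPM, which did not exceed its level of 40.5 CPM in glia-like cells beyond the spread. ADAM23, a non-catalytic member that binds integrins, gave 66.3 ± 30.6 CPM in glia-like cells and 60.02 ± 53.2 CPM in fibroblast-like cells. Glia-like cells were few, so that 96.5% of ADAM23 UMIs lay in fibroblast-like cells. ADAM2, best known from sperm, averaged 39.4 ± 13.9 CPM in epithelial-like cells.

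Among the ADAMTS genes, the proteoglycan-cleaving ADAMTS1 was expressed throughout the stroma, with 1990 ± 201 CPM in smooth muscle and pericyte cells, 1373 ± 527 in glia-like cells (n = 3), 1044 ± 107 in fibroblast-like and 1027 CPM in endothelial-like cells. ADAMTS4 and ADAMTS5, the aggrecanases, were placed differently. ADAMTS4 averaged 150 ± 35.6 CPM in smooth muscle and pericyte cells, whereas ADAMTS5 averaged 110 ± 48.8 CPM in fibroblast-like cells, which held 88.8% of its UMIs. ADAMTS9, a versican-cleaving enzyme, was highest in endothelial-like cells (194 ± 64.5 CPM), ADAMTS12 in smooth muscle and pericyte cells (37.4 ± 15.1 CPM) and the procollagen N-proteinase ADAMTS14 in epithelial-like cells (53.5 ± 24.3 CPM). ADAMTS19 (25.8 ± 26.2 CPM) and ADAMTSL4, a fibrillin-binding protein (124 ± 28.4 CPM), were highest in fibroblast-like cells, while ADAMTSL1 (23.9 ± 7.60 CPM) and ADAMTS20 (20.1 ± 18.1 CPM) were highest in glia-like cells (n = 3). The ADAMTS20 level there rests on 13 UMIs over all samples. Fibroblast markers summed to 18562, 24144 and 5752 CPM in the glia-like sums of Injury 1, Injury 2 and Normal 1. Their part in the glia-like levels was not tested.

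The question of the design is how these genes differ between injured and resting mucosa. UMIs were summed per sample within a class and tested by edgeR's quasi-likelihood method, with p-values adjusted by the Benjamini-Hochberg method over all genes tested in the class and a threshold of 0.05. Each comparison rests on 2 samples against 2, and the p-values measure the spread between these samples only. Enough UMIs for a test in at least 1 comparison were found for 34 of the 46 genes, and 12 were never tested, among them MMP7, MMP8 and TIMP4. One member passed the threshold in 1 class, TIMP3 in epithelial-like cells.

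In epithelial-like cells TIMP3 fell after injury. It was at 144 CPM in Injury 1 and 188 CPM in Injury 2, against 587 CPM in Normal 1 and 478 CPM in Normal 2. Both injured samples lay below both normal ones, and the log2 fold change was -1.92 (SE 0.28, edgeR adjusted p = 0.0405). With each cell thinned to 1000 UMIs, the share of epithelial-like cells with a TIMP3 UMI was 10.1% and 14.2% after injury and 34.9% and 30.8% in normal mucosa. Without thinning, at median depths between 11931.5 and 19867.5 UMIs, these shares were 43.8% and 67.2% against 78.2% in each normal sample. For a class with little TIMP3, the thinned share in macrophage-like cells ranged from 1.84% to 7.90%. The call was lost without Injury 1 (adjusted p = 0.207) or without Injury 2 (adjusted p = 0.0749), and with the numbers of the samples as a replicate block (adjusted p = 0.0620), where MMP3 was the 1 member called against 0.355% of all genes. It was also lost at a mitochondrial limit of 10% (adjusted p = 0.0911), where 0 members and 0.805% of all genes were called. That limit left 414 of 566 and 228 of 354 epithelial-like cells in the injured samples and 192 of 441 and 69 of 170 in the normal ones.

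Over all genes tested in epithelial-like cells 1.73% were called, and 1.07% were called lower after injury, against 1 of 17 members. The median log2 fold change was -0.30 over the 17 members and -0.00 over the 7041 genes. In edgeR 8 of the 17 members and 1446 of the 7041 genes had an unadjusted p under 0.05. DESeq2 called 6 members, all lower after injury, namely TIMP1, TIMP3, MMP1, MMP3, ADAMTS9 and ADAMTS12, and 7.2% of all genes. Of these, ADAMTS12 passed the filter on low counts only through the normal samples. With 1 library left out, the count was 0 without Injury 1 (0.781% of all genes), 1 without Injury 2 (MMP3, 1.34%), 6 without Normal 1 (5.25%) and 2 without Normal 2 (6.31%).

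The inhibitor TIMP1 and the proteases MMP1 and MMP3 were lower in both injured samples without passing the threshold. TIMP1 stood at 128 and 109 CPM after injury and at 164 and 370 CPM in normal mucosa (log2 fold change -1.48, SE 0.47, adjusted p = 0.160). MMP1 stood at 575 CPM in Injury 1 and 283 CPM in Injury 2, against 994 CPM in Normal 1 and 1235 CPM in Normal 2 (log2 fold change -1.67, SE 0.40, adjusted p = 0.0951). The groups did not overlap for either gene, which for MMP1 was a condition of being named. For MMP3 the injured samples gave 1.38 and 3.38 CPM and the normal ones 14.8 and 46.4 CPM, with an edgeR adjusted p of 0.0746. MMP3 passed the filter on low counts in this class only through the normal samples, since Injury 1 lay under its limit. MMP10 overlapped, at 251 and 209 CPM after injury and 314 and 171 CPM in normal mucosa, and so did MMP13, which was carried by Normal 2 with 208 CPM against 13.9 to 46.2 CPM in the other 3 samples.

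Among members of at least 20 CPM whose groups did not overlap, the 3 with the largest positive differences were ADAMs. ADAM10 was at 235 CPM in Injury 1, 206 CPM in Injury 2, 124 CPM in Normal 1 and 50.7 CPM in Normal 2, with a log2 fold change of 1.13 (SE 0.35, adjusted p = 0.159). ADAM2 gave 55.9 and 45.9 CPM after injury against 26.4 and 29.5 CPM, and ADAM15 gave 28.7 and 26.3 against 11.9 and 19.2 CPM. Neither passed the test, with adjusted p-values of 0.279 and 0.451.

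**Figure D2:**
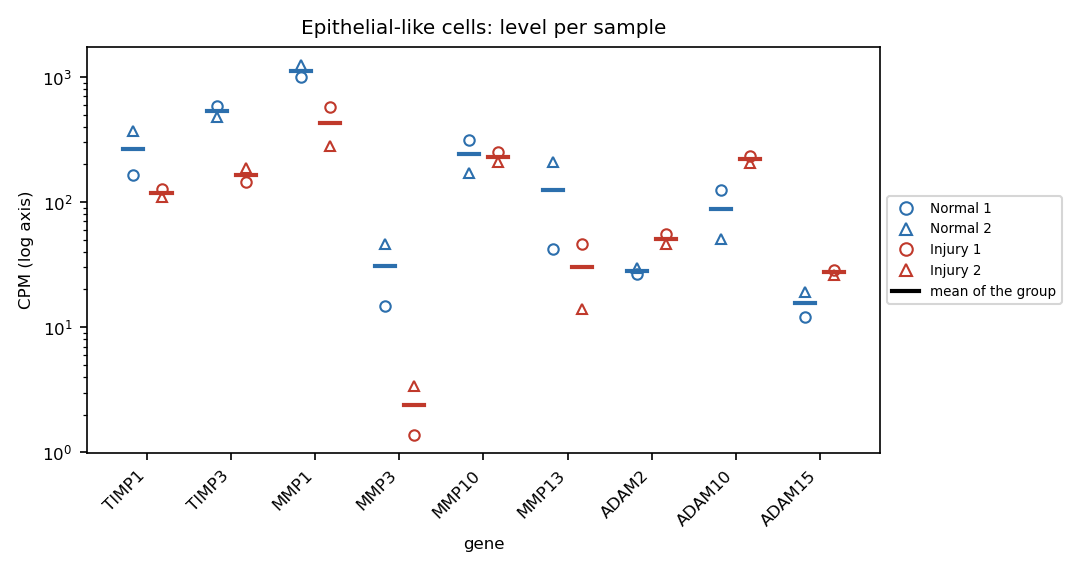
Levels of 9 genes in epithelial-like cells are plotted per sample in CPM on a log axis, in blue for Normal and red for Injury, with a bar for the mean of each group. TIMP3 sits at 144 and 188 CPM after injury and at 587 and 478 CPM in normal mucosa, while MMP10 overlaps between the groups.

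The epithelial-like class consisted of 2 clusters, and the members were also followed in each. Cluster 12 was led by SERPINB5, AQP3 and the basal keratin KRT5 and also by MMP1, and cluster 9 by SPP1 and CYP4B1. Cluster 12 held 202, 141, 202 and 113 cells in Injury 1, Injury 2, Normal 1 and Normal 2, and cluster 9 held 364, 213, 239 and 57. Cluster 12 thus made up 35.7% and 39.8% of the class after injury and 45.8% and 66.5% in normal mucosa, and the part of this mix in the class sums was not tested. TIMP3 was lower after injury in both, with 214 and 237 CPM against 717 and 563 CPM in cluster 12 and 72.2 and 141 CPM against 432 and 210 CPM in cluster 9. Tested alone, cluster 12 kept the call (log2 fold change -1.83, adjusted p = 0.0244), and cluster 9 did not (-1.69, adjusted p = 0.166). In these fits 6 members and 5.48% of all genes were called in cluster 12, against 0 members and 0.18% in cluster 9. MMP1 stood at 651 and 338 CPM after injury against 1608 and 1486 CPM in cluster 12 (log2 fold change -2.01, adjusted p = 0.0302), whereas in cluster 9 its groups overlapped at 498 and 230 against 264 and 443 CPM. In cluster 12 alone TIMP1 (-1.62, adjusted p = 0.0423) and MMP3 (-4.20, adjusted p = 0.0281) were also lower after injury, and ADAM10 was higher (1.87, adjusted p = 0.0281). The difference between the clusters was not tested.

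Markers of stromal and immune cells were present in the epithelial-like sums. Summed over all 6 fibroblast markers they came to 1570 and 2373 CPM in the injured samples and to 202 and 2669 CPM in the normal ones. The 9 endothelial markers summed to 35.8 to 95.8 CPM, and the 8 smooth muscle and pericyte markers to 25.5 to 38.1 CPM except for 213 CPM in Normal 2. The 6 mast cell markers, of which MS4A2, CPA3 and CMA1 were at 0, summed to 6.62 and 1.96 CPM in the injured samples and to 14.98 and 17.9 CPM in the normal ones. Neutrophil markers summed to 218 and 786 CPM after injury against 33.0 and 69.3 CPM. Macrophage markers gave 97.4 and 27.8 against 9.29 and 67.3 CPM. T cell markers gave 20.4 and 11.7 against 5.31 and 9.61 CPM, and B cell markers 8.97 and 3.03 against 1.14 and 1.33 CPM. The part of these cells in the results was not tested.

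In fibroblast-like cells, the main source of MMP2 and TIMP3, none of 31 members passed the threshold in edgeR, where 0% of the 8836 genes were called. An unadjusted p under 0.05 was found for 8 members and for 958 of the 8836 genes. DESeq2 called 5 members, against 2.93% of all genes. Of the 5, ADAMTS19, ADAMTS5 and ADAMTS6 were higher after injury and ADAM23 and MMP10 lower. The median log2 fold change was 0.24 over the members and 0.01 over all genes. With 1 library left out, 1 member was called without Injury 1 (0.237% of all genes), 1 without Injury 2 (0.536%), 4 without Normal 1 (2.28%) and 3 without Normal 2 (5.39%), and ADAMTS19 was among them each time.

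ADAMTS19, a secreted protease whose substrates are little known, showed the widest separation. It was at 51.4 CPM in Injury 1 and 45.3 CPM in Injury 2, against 1.69 CPM in Normal 1 and 4.85 CPM in Normal 2. The log2 fold change was 3.87 (SE 0.52, edgeR adjusted p = 0.113). In cells thinned to 1000 UMIs it was found in 4.32% and 3.997% of fibroblast-like cells after injury and in 0.121% and 0.483% in normal mucosa, and without thinning in 26.3% and 26.8% against 0.644% and 3.22%. ADAMTS6, an enzyme of fibrillin-rich matrix, was rarer and had the same adjusted p of 0.113, with 8.75 and 8.98 CPM after injury against 1.53 and 2.01 CPM.

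The aggrecanase ADAMTS5 stood at 123.1 and 172 CPM in the injured samples and 81.2 and 62.6 CPM in the normal ones (log2 fold change 1.17, SE 0.27, adjusted p = 0.230). MMP2 stood at 1221 and 1382 CPM against 784 and 985 CPM (0.67, SE 0.27, adjusted p = 0.450), and MMP16 at 96.1 and 93.8 CPM against 70.6 and 44.98 CPM (0.85, SE 0.27, adjusted p = 0.349). All 3 genes were higher in both injured samples than in both normal ones, by differences that did not pass the test. For ADAMTS5 and MMP16 this separation was a condition of being named, and its share over all genes was not taken.

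Members with the opposite sign included a pair of stromelysins. MMP10 was at 61.1 and 43.2 CPM after injury and at 223 and 107 CPM in normal mucosa (log2 fold change -1.52, SE 0.39, adjusted p = 0.270). MMP3 was at 74.8 and 46.4 CPM against 138 and 132 CPM (-1.03, SE 0.31, adjusted p = 0.323). ADAM23 was at 15.4 and 27.8 CPM against 62.9 and 134 CPM (-2.09, SE 0.50, adjusted p = 0.239). None of these passed the threshold. The inhibitors overlapped between conditions, with TIMP1 at 3019 and 1911 CPM after injury against 2705 and 2643 CPM and TIMP3 at 1474 and 2143 CPM against 1274 and 1880 CPM, and their adjusted p-values were 0.996 and 0.802.

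**Figure D3:**
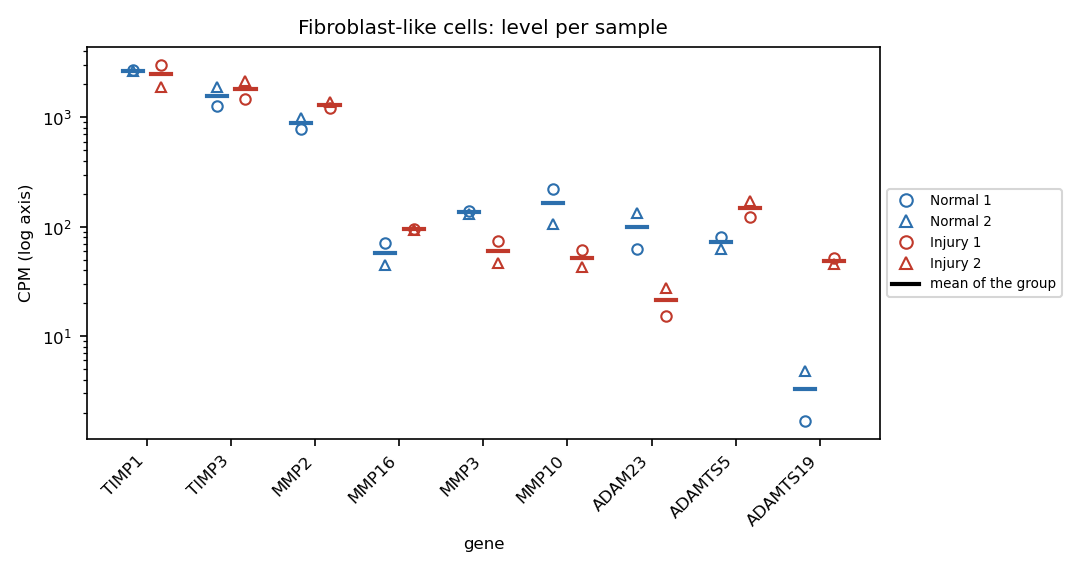
Levels of 9 genes in fibroblast-like cells are plotted per sample in CPM on a log axis, in blue for Normal and red for Injury, with a bar for the mean of each group. ADAMTS19 lies at 51.4 and 45.3 CPM after injury and at 1.69 and 4.85 CPM in normal mucosa, and TIMP1 and TIMP3 overlap.

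Fibroblast-like cells formed 5 larger clusters, whose cell numbers differed between samples, and the members were followed within each. Cluster 1 was led by TNFAIP6, COCH and SFRP2, cluster 2 by TCF21 and EDIL3, cluster 3 by PTPRQ, HHIP, ADAM23 and WIF1, cluster 4 by MFAP5 and PCOLCE2, and cluster 7 by APOD and HSD11B1. In Injury 1, Injury 2, Normal 1 and Normal 2, cluster 1 held 873, 797, 275 and 517 cells and cluster 3 held 184, 305, 263 and 1015. Cluster 1 made up 42.7%, 32.7%, 22.1% and 15.7% of the class in these samples and cluster 3 made up 9.002%, 12.5%, 21.2% and 30.8%.

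ADAMTS19 was higher in both injured samples in each of the 5 clusters. In cluster 1 it was at 67.5 and 63.2 CPM after injury against 4.03 and 1.83 CPM, and in cluster 4 at 37.7 and 32.7 CPM against 0.776 and 0.244 CPM. These were the 2 clusters in which it passed the test alone, with log2 fold changes of 4.64 (adjusted p = 0.0135) and 6.45 (adjusted p = 0.0181). It was the 1 member called in each, against 0.48% of all genes in cluster 1 and 0.0764% in cluster 4. In cluster 4 ADAMTS19 passed the filter on low counts only through the injured samples. The lowest injured levels were in cluster 7, at 15.9 and 27.4 CPM against 0 and 1.37 CPM. ADAMTS5 was also higher in both injured samples in all 5, most abundantly in cluster 4 with 204 and 312 CPM against 141 and 136 CPM. MMP2 was higher in both injured samples in clusters 1, 3, 4 and 7, for example at 1324 and 1479 CPM against 601 and 661 CPM in cluster 1, and overlapped in cluster 2 at 1057 and 1241 CPM against 783 and 1169 CPM.

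The stromelysins were concentrated in cluster 3, and there the groups overlapped. MMP10 stood at 554 and 343 CPM after injury and 908 and 295 CPM in normal mucosa in that cluster, and at most 23.5 CPM in any sample in clusters 1, 4 and 7. MMP3 stood at 663 and 314 CPM against 518 and 371 CPM, with a log2 fold change of 0.05 in cluster 3 and 0.13 in cluster 2, of the other sign than in the whole class. ADAM23, itself a leading gene of cluster 3, was at 155 and 202 CPM against 248 and 311 CPM there and at 11.7 and 19.3 CPM against 34.5 and 121 CPM in cluster 2. The share of cluster 3 in the class was lower in both injured samples, as were the class sums of these 3 genes, and its part in them was not tested beyond these values.

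**Figure D4:**
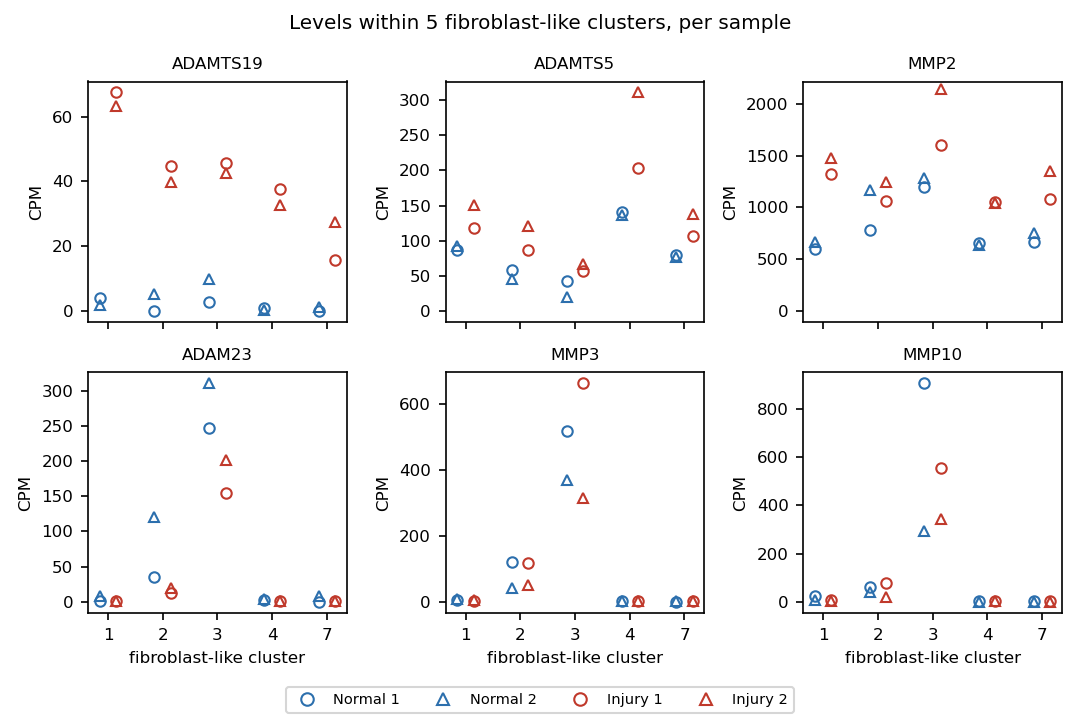
Levels in CPM of 6 genes are plotted per sample within the 5 larger fibroblast-like clusters (1, 2, 3, 4 and 7), in blue for Normal and red for Injury. ADAMTS19 is higher in both injured samples in every cluster, whereas MMP3 and MMP10 are concentrated in cluster 3, where the groups overlap.

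In macrophage-like cells the member with the widest separation was the elastase MMP12. It had 1158 UMIs in Injury 1 (295 CPM) and 403 UMIs in Injury 2 (124 CPM), and 0 in both normal samples, from 111 and 104 cells. Against a limit of 3 UMIs over the normal group, its pooled level was at least 97.7-fold higher after injury. The edgeR adjusted p was 0.0827. After thinning to 1000 UMIs, 4.77% and 3.12% of macrophage-like cells had an MMP12 UMI in the injured samples, and before thinning 7.49% and 7.01%, against 0.157% and 0.295% in T cell-like cells. An MMP12 UMI was found in 0 of 215 normal macrophage-like cells, which allows a share of cells with a UMI of up to 1.40%. Of its 1561 UMIs in the class, 1556 lay in cluster 10, led by the complement genes C1QA and C1QB and by CSF1R, at 404 and 213 CPM against 0. MMP12 passed the filter on low counts only through the injured samples. In cluster 14 it stood at 1.88 and 2.17 CPM after injury.

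No member of 12 was called in macrophage-like cells by edgeR, where 0% of 5466 genes were called. At an unadjusted p under 0.05 were 4 members and 777 of the 5466 genes. DESeq2 called 3 members (MMP12, TIMP3 and ADAMTS1), against 1.46% of all genes. The members' median log2 fold change was -0.11 against -0.00 over all genes. ADAMTS1 was at 54.5 and 53.4 CPM after injury against 127 and 114 CPM (log2 fold change -1.26, SE 0.21, adjusted p = 0.100), and TIMP3 at 60.4 and 28.8 CPM against 124 and 211 CPM (-2.04, SE 0.43, adjusted p = 0.156). TIMP1 overlapped, at 870 and 342 CPM against 478 and 801 CPM. The counts were 2 without Injury 1 (0.66% of all genes), 1 without Injury 2 (0.609%), 7 without Normal 1 (1.64%) and 3 without Normal 2 (5.23%). Fibroblast markers summed to 3930 and 3079 CPM in the injured and 1044 and 7644 CPM in the normal macrophage-like sums, endothelial markers to 387 and 277 against 535 and 467 CPM, and smooth muscle and pericyte markers to 119 and 54.6 against 149 and 276 CPM. The last 2 lists, like TIMP3 and ADAMTS1, were higher in both normal samples, and their part in these results was not tested.

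In endothelial-like cells none of 21 members was called by edgeR or DESeq2, against 0.0264% and 0.792% of all genes. In edgeR 3 members and 531 of 7579 genes had an unadjusted p under 0.05. The median log2 fold change was -0.20 over the members and -0.01 over all genes. TIMP3 was lower in both injured samples, at 475 and 637 CPM against 993 and 826 CPM (log2 fold change -0.79, SE 0.25, adjusted p = 0.634). ADAMTS5 was at 26.9 and 20.8 CPM after injury against 3.74 and 11.4 CPM (1.52, SE 0.58, adjusted p = 0.701), and it was the 1 member called when Normal 2 was left out, against 0.553% of all genes. ADAM15 stood at 164 and 194 CPM against 55.5 and 148 CPM and ADAMTS1 at 1669 and 924 CPM against 607 and 907 CPM, with adjusted p-values of 0.873 and 0.823. TIMP1 overlapped at 3899 and 2763 CPM against 2857 and 4325 CPM. Smooth muscle and pericyte markers, all 8 of which had UMIs here, summed to 53.5 and 61.8 CPM after injury against 74.6 and 119 CPM. Like TIMP3, they were lower in both injured samples. Fibroblast markers summed to 637 and 1221 CPM against 248 and 1014 CPM. Their part was not tested.

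In smooth muscle and pericyte cells, where both inhibitors were most abundant, none of 23 members was called by edgeR or DESeq2, against 0% and 1.13% of all genes. In edgeR 3 members and 619 of 6499 genes had an unadjusted p under 0.05. The median log2 fold change was 0.07 over the members and -0.01 over all genes. TIMP1 stood at 4208 and 2908 CPM after injury against 4867 and 7058 CPM (log2 fold change -0.74, SE 0.29, adjusted p = 0.486), while TIMP3 overlapped at 2589 and 2127 CPM against 2728 and 2271 CPM. ADAMTS12, which cleaves the cartilage protein COMP, was at 45.6 and 54.4 CPM against 27.2 and 22.4 CPM (1.04, SE 0.25, adjusted p = 0.312), and MMP2 at 118 and 137 CPM against 48.4 and 87.0 CPM (0.91, SE 0.35, adjusted p = 0.481). Without Normal 1 and without Normal 2 the count was 3 each, with ADAMTS12 in both, against 4.62% and 11.5% of all genes. In these sums fibroblast markers came to 9307 and 12144 CPM after injury against 1890 and 8876 CPM, in the order of MMP2. Like ADAMTS12, they were higher in both injured samples. Endothelial markers came to 136 and 59.3 CPM against 252 and 439 CPM, in the order of TIMP1. All markers of both lists had UMIs, and the part of these cells was not tested.

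T cell-like cells expressed few members, and their levels of TIMP RNA were low. None of 8 members was called by edgeR, against 0.022% of all genes. At an unadjusted p under 0.05 were 2 members and 653 of 4536 genes. The same 2 members, TIMP1 and TIMP3, were called by DESeq2, against 2.39% of the genes that DESeq2 gave an adjusted p. TIMP1 was at 164 and 84.5 CPM after injury against 254 and 458 CPM (log2 fold change -1.71, SE 0.42, adjusted p = 0.176), and TIMP3 at 88.7 and 55.0 CPM against 178 and 146 CPM (-1.33, SE 0.28, adjusted p = 0.154). TIMP1 was called without Injury 1 and without Normal 1, 1 member each time, against 1.55% and 1.8% of all genes. ADAM19 was at 53.5 and 60.3 CPM after injury against 48.1 and 15.7 CPM (0.75, SE 0.47, adjusted p = 0.501). The members' median was -0.44 against -0.00 over all genes. Fibroblast markers summed to 1225 and 1016 CPM in the injured samples and 153 and 2555 CPM in the normal ones, endothelial markers to 76.5 and 29.0 against 158 and 72.8 CPM, and smooth muscle and pericyte markers to 101 and 42.6 against 45.2 and 55.1 CPM, and their part was not tested.

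Neutrophil-like cells were few in normal mucosa, with 25 and 30 cells against 253 and 139. The class joined cluster 18, with a median of 699 UMIs per cell and 143, 50, 5 and 15 cells in Injury 1, Injury 2, Normal 1 and Normal 2, and cluster 15, with a median of 8657.5 UMIs and 110, 89, 20 and 15 cells. Cluster 15 scored 1.99 for neutrophil and 1.55 for macrophage markers, and at a resolution of 0.3 only 109262 of the 1031902 UMIs of Injury 1 stayed neutrophil-like, so these are values of a mixed class whose mix differed between the samples. None of 6 members was called by edgeR or DESeq2, against 0% and 0.62% of all genes. In edgeR 3 members and 179 of 2580 genes had an unadjusted p under 0.05. TIMP3, MMP2 and ADAMTS1 passed the filter on low counts in this class only through the injured samples. TIMP3 had 81 and 37 UMIs after injury and 0 in both normal samples, at least 6.12-fold higher against 3 UMIs over the normal group, and MMP2 had 21 and 29 UMIs against 0, at least 2.60-fold. ADAMTS1 stood at 99.8 and 119 CPM against 0 and 18.1 CPM, the latter from 3 UMIs, with an adjusted p of 0.325, and it was the 1 member called without Injury 1 and without Normal 2, against 1.38% and 0.459% of all genes. Fibroblast markers summed to 1498 and 1718 CPM in the injured and to 114 and 501 CPM in the normal neutrophil-like sums, in the direction of these 3 genes, and their part was not tested. TIMP1 was at 1077 and 597 CPM against 524 and 543 CPM.

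Summed over all kept cells, none of 34 members was called by edgeR, against 0.00955% of all genes. At an unadjusted p under 0.05 were 8 members and 1232 of 10475 genes. DESeq2 called 3 members (ADAMTS19, ADAMTS6 and MMP12), against 4.24% of all genes. In such sums, fewer cells of a type and less RNA per cell cannot be told apart. ADAMTS19 was at 20.2 and 23.0 CPM after injury against 0.524 and 2.68 CPM (log2 fold change 3.64, SE 0.80, adjusted p = 0.215), and was the 1 member called without Normal 2, against 1.24% of all genes. ADAMTS9, mostly endothelial, was at 40.7 and 43.7 CPM against 66.4 and 94.1 CPM (-0.96, SE 0.29, adjusted p = 0.328), whereas within endothelial-like cells it overlapped at 151 and 227 against 131 and 268 CPM. ADAMTS5, MMP16, ADAM23 and MMP3 had the same sign as in fibroblast-like cells, with adjusted p-values of 0.386 to 0.432. TIMP1 gave 2356 and 1633 CPM against 2264 and 3156 CPM, and TIMP3 879 and 1353 CPM against 1059 and 1448 CPM. The median was 0.15 over the members and -0.02 over all genes.

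Whether the effect of injury differed between fibroblast-like, endothelial-like and smooth muscle and pericyte cells was tested in 1 fit over the 3 classes. None of 30 members passed, against 0.779% of all genes. An unadjusted p under 0.05, whose share over all genes was not taken here, was found for 5 members. They were ADAMTS6 (0.0119), TIMP3 (0.0160), MMP1 (0.0161), ADAM23 (0.0290) and TIMP1 (0.0443). Their adjusted p-values were 0.259 to 0.417, and 2 members were called without Normal 1, against 2.42% of all genes. No member's response was thus shown to belong to 1 of these classes.

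The 2 families were related by the ratio of summed MMP to summed TIMP UMIs, a ratio of transcripts that says nothing of enzyme activity. MMP9, MMP14 and TIMP2 are not in these sums, and levels of different genes are not on 1 scale. The ratio is therefore read between classes, and a value of 1 marks no balance. Epithelial-like cells were the only one of the 10 classes above 1 in all of their measured samples, with 3.41 and 1.90 after injury and 1.86 and 2.02 in normal mucosa. Fibroblast-like cells gave 0.344 and 0.395 after injury against 0.354 and 0.299. In endothelial-like and smooth muscle and pericyte cells the ratio was 0.0149 to 0.0355 in every sample. Macrophage-like cells gave 0.377 and 0.478 against 0.0453 and 0.241, and 0.292 and 0.307 against 0.0325 and 0.109 at a mitochondrial limit of 10%. In epithelial-like cells, MMP and TIMP sums were both lower after injury, with MMPs at 925 and 565 CPM against 1393 and 1711 CPM and TIMPs at 272 and 297 CPM against 751 and 848 CPM. At a mitochondrial limit of 10% the MMP sums were 950 and 599.97 CPM against 1387 and 989 CPM, and the TIMP sums 258 and 285 CPM against 801 and 599 CPM. The epithelial-like ratios at that limit were 3.68 and 2.11 after injury against 1.73 and 1.65. They did not overlap there, whereas those of the main setting did, and the ratio was not tested.

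**Figure D5:**
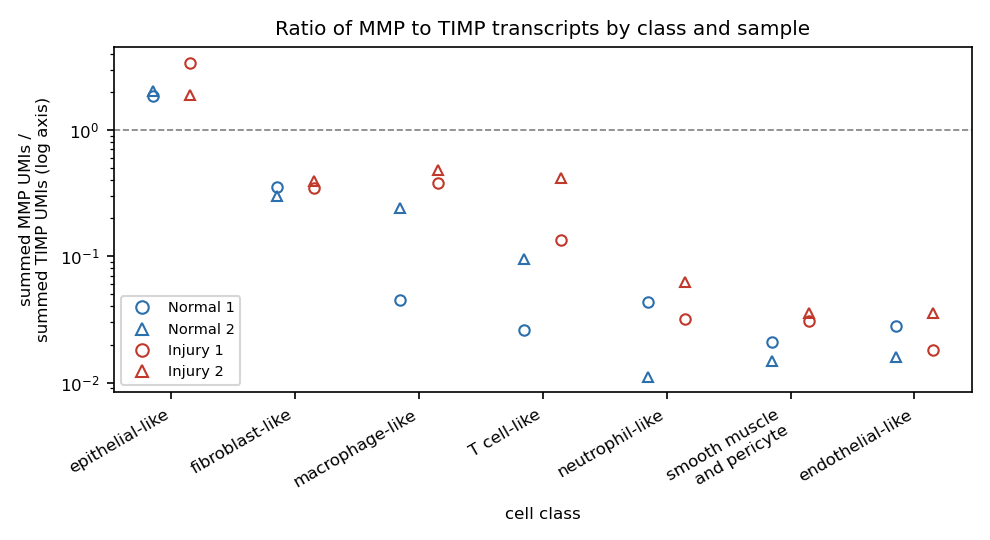
The ratio of summed MMP to summed TIMP UMIs is plotted on a log axis for each sample in the 7 compared classes, in blue for Normal and red for Injury, with a dashed line at 1. The 4 epithelial-like values lie between 1.86 and 3.41, and the highest of all other values is 0.478.

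Other genes of matrix turnover were followed through 5 fixed lists. Of all genes, edgeR called 1.73% in epithelial-like cells, 1.07% as lower after injury, and 0.0264% in endothelial-like cells. In epithelial-like cells, 2 of 7 tested genes of protease control were lower after injury, PCSK5, a proprotein convertase (log2 fold change -2.49, adjusted p = 0.0289), and THBS1, the adhesive glycoprotein thrombospondin-1, at 251 and 236 CPM against 924 and 668 CPM (-1.94, adjusted p = 0.0326). Of 14 tested matrix substrates, the basement membrane genes COL4A1 (-2.83, adjusted p = 0.0413) and NID1 (-3.87, adjusted p = 0.0398) were lower and none was higher. NID1 passed the filter on low counts only through the normal samples. Of 14 tested shed membrane proteins and sheddase partners, HBEGF, a growth factor released by ADAMs, was lower at 169 and 126 CPM against 424 and 315 CPM (-1.57, adjusted p = 0.0462). In endothelial-like cells 1 of 16 matrix substrates was called, the hyaluronan link protein HAPLN1, at 25.1 and 26.7 CPM after injury against 0.809 and 1.06 CPM (4.66, adjusted p = 0.0486). HAPLN1 passed the filter on low counts only through the injured samples. In fibroblast-like cells edgeR called none of 20 matrix substrates and none of 10 genes of protease control. At an unadjusted p under 0.05 were 9 and 5 of them, against 958 of all 8836 genes. The median log2 fold changes were 0.72 and 0.81 against 0.01 over all genes. The list of other zinc metalloproteases held at most 11 tested genes in a comparison and none was called, with at most 4 at an unadjusted p under 0.05. These 4 were among 10 tested in fibroblast-like cells and 8 in smooth muscle and pericyte cells. The numbers over all genes there were 958 of 8836 and 619 of 6499. The 9 measured genes of the dissociation stress list gave 0 calls in all comparisons, with 0 to 5 at an unadjusted p under 0.05, and their median log2 fold change was -0.19 in epithelial-like, 0.05 in T cell-like, 0.26 in neutrophil-like, 0.31 in fibroblast-like, 0.56 in macrophage-like, 0.67 in smooth muscle and pericyte and 0.77 in endothelial-like cells and 0.36 over all cells. The highest number at an unadjusted p under 0.05 was in smooth muscle and pericyte cells, against 619 of all 6499 genes there. The part of the dissociation stress list in the results was not tested. No further gene of the 5 lists passed the threshold in edgeR.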

How the data were processed

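For each sample the authors deposited raw UMI counts per gene and cell barcode, made with Cell Ranger 6.0.1 per the file headers. The genome release is not given in the sources used here. Members and lists were chosen with earlier results of these data known. Cells were filtered by UMIs, genes and a mitochondrial share of at most 15%, and Seurat 5.3.0 (R 4.3.3) was used to integrate the samples and to cluster the cells at a resolution of 0.8. Classes were named from fixed markers, and doublets were scored by Scrublet (scanpy 1.11.5). Clusters with mostly high doublet scores stayed unnamed, and removal of the 5% highest scores was an alternative. Counts were summed per sample and class and tested with edgeR 4.0.16 (filterByExpr, TMM, glmQLFTest, Benjamini-Hochberg), with DESeq2 1.42.0 as an alternative, whose shares of all genes leave out genes without an adjusted p. The fits across genes were tested on simulated data. Shares of cells were thinned to 1000 UMIs by expectation, and floors of 3 UMIs cover counting error only.

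Genes named were all TIMPs, members past the threshold, the 3 largest differences in each direction per comparison among members with 20 CPM or more and groups that did not overlap, and the 4 highest members of each class. ADAMTS6, ADAMTS20 and, in epithelial-like cells, ADAMTS9 and ADAMTS12 were chosen after their values were seen, as was the alternative of a single cluster alone.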

Additional observations from a re-analysis of the deposited data

How the results depend on the processing

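With 2 samples against 2, calls depended on the settings. In the order of fibroblast-like, endothelial-like, smooth muscle and pericyte, epithelial-like, T cell-like, macrophage-like, neutrophil-like and all cells, where 0 members were called except for 1 in epithelial-like cells, DESeq2 called 5, 0, 0, 6, 2, 3, 0 and 3, no filter on low counts gave 5, 0, 0, 10, 2, 6, 2 and 1, and the replicate block gave 2, 0, 1, 1, 0, 3, 2 and 3, with MMP3 in place of TIMP3 in epithelial-like cells. In the same order, no filter called 3.83%, 0.0158%, 0.682%, 7.96%, 3.51%, 3.92%, 0.406% and 0.448% of all genes and the block 0.86%, 0.106%, 1.69%, 0.355%, 0.904%, 3.46%, 0.465% and 2.63%. Leaving out 1 sample gave 1 to 4, 0 to 1, 0 to 3, 0 to 6, 0 to 1, 1 to 7, 0 to 1 and 0 to 1. Without integration 2 members were called in T cell-like cells (6.45% of all genes), and in epithelial-like cells 0 were called at a mitochondrial limit of 10% and 2 after removal of the 5% highest doublet scores (2.5%). The test between classes called 6 without the filter (3.99%) and 0 to 2 with 1 sample left out. Epithelial TIMP3 was called under 8 of 12 other settings, with log2 fold changes from -2.18 to -1.68. A resolution of 0.3 left exactly the same epithelial-like cells as the main setting, and no integration left nearly the same. These 2 settings could therefore hardly differ from it. The settings that lost the call are given with TIMP3 above. Of 43 named fold changes, 38 kept their sign under these settings, with the fits of single clusters not counted. Members other than the TIMPs were named only where their groups did not overlap. Their kept sign was therefore largely fixed by that choice and is no test of the result. TIMP1 in fibroblast-like cells turned to -0.032 with the replicate block, -0.019 without integration, -0.032 without high doublet scores, -0.37 to 0.31 with 1 sample left out, and -1.08 and -0.21 in clusters 3 and 4 alone. TIMP3 there turned to -0.048, -0.49, -0.88 and -0.12 in clusters 1, 2, 3 and 7 alone, MMP16 to -0.24 in cluster 3, and MMP3 to 0.13 and 0.049 in clusters 2 and 3. With 1 sample left out, TIMP1 ranged from -0.56 to 0.25 in endothelial-like and -0.98 to 0.31 in macrophage-like cells (0.048 without integration), and TIMP3 from -0.19 to 0.067 in smooth muscle and pericyte cells and -0.57 to 0.19 over all cells. The causes were not tested. Samples with the same number deviated together with correlations of -0.10 to 0.23, over 2 pairs only. This cannot settle whether they share more than a number. Neutrophil-like cells gave no fit at a resolution of 0.3 or without integration.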

Other observations

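When the cells were clustered without integration of the samples, 1 fibroblast-like cluster of 311 cells had 309 of them from Normal 1, and MMP10 and MMP3 were among its leading genes beside CRYAB and INHBA. In the integrated clusters, MMP10 in Normal 1 was at 908 CPM in cluster 3, against 295 to 554 CPM in the other 3 samples. In macrophage-like cluster 10, MMP3 and MMP10 were found mainly in Normal 2, at 140 and 93.2 CPM, against at most 2.66 and 8.52 CPM in the other 3 samples.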
